A study of Mus musculus with 42 samples.

Results

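Adult hemoglobin in mice is made from 4 genes, a pair for the alpha chain (Hba-a1, Hba-a2) and a pair for the beta chain (Hbb-bs, Hbb-bt), and these 4 of the 47729 genes in the deposited files are described here. They were taken as a named gene family, with earlier results of these data known. RNA came from livers of 3 mice of the genotype Gfi1Cre/+;Rpl22HA/HA, in which Cre, made from the Gfi1 locus, lets cells with present or past Gfi1 expression carry an HA tag on the ribosomal protein RPL22. From each mouse, total RNA of the homogenized tissue (input) and the RNA bound to ribosomes pulled down with an HA antibody (IP) went into 7 library protocols: NEB (NEBNext Ultra Directional), NuG (NuGEN Ovation V2), SMTer (SMARTer Stranded) and Tru4 (TruSeq v2) with 4 ng each, the SMART-Seq v4 kit with 4 ng (SMTseq4) or 0.25 ng (SMTseq0.25), and Tru70 (TruSeq v2) with 70 ng. This gives 42 libraries in 14 groups of 3 mice, all of one genotype, with no library from mice without the tag or without Cre. The labels give an age of 1 day and the protocol text an age of 30 days. The SMART-Seq v4 libraries were sequenced at another centre than the rest, so that kit and centre cannot be told apart.

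Hemoglobin carries oxygen as a pair of alpha chains and a pair of beta chains, each holding a heme group. Its mRNAs are made in enormous amounts by erythroblasts and persist in reticulocytes, which still translate them after the nucleus is lost. In liver, globin mRNA can come from the blood in the vessels and from islands of blood formation in the young liver. Heme is built by a chain of enzymes that starts with ALAS2 in erythroid cells and ALAS1 elsewhere, while haptoglobin, hemopexin and heme oxygenase bind or break down hemoglobin and heme that leave the red cell. In bulk RNA, fewer cells of a type and less RNA per cell cannot be told apart.

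Fractions of mouse 3 were exchanged in NEB, NuG, SMTer and Tru4. For these 8 libraries the number of genes with at least 1 count equals the feature number that the study tabulates for the opposite fraction, so that 34 of 42 libraries matched under their labels and 42 of 42 after the exchange. All values below use the exchanged fractions unless the labelled ones are named. As labelled, the Tru4 input of mouse 3 would hold 12.9% and its IP 0.132% of exon counts on the 4 genes. Values without mouse 3 stand beside the tests.

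Within each chain the copies are nearly the same sequence, which decides which reads can be counted. On GRCm38, Hba-a1 (ENSMUSG00000069919) lies at chr11:32283511-32284465 on the plus strand and Hba-a2 (ENSMUSG00000069917) at chr11:32296489-32297298 on the plus strand. Hbb-bs (ENSMUSG00000052305) lies at chr7:103826534-103828096 and Hbb-bt (ENSMUSG00000073940) at chr7:103812524-103813996, both on the minus strand. Each has 3 exons in its first annotated transcript. The coding sequences of Hba-a1 and Hba-a2 are 429 bases long and differ by 1 substitution, C381T, counted from the A of the start codon. Those of Hbb-bs and Hbb-bt are 444 bases long and differ by 1 substitution, C417T. Neither substitution changes the encoded amino acid, so the paired genes encode identical chains. The end of each coding sequence in GENCODE M21 is printed below, since it holds the sole coding base, in capitals, that tells the copies apart.

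Hba-a1: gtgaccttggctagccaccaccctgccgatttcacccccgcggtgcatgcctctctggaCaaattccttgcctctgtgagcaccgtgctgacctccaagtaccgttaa

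Hba-a2: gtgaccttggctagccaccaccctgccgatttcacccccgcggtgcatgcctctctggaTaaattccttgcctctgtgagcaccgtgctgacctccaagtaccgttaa

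Hbb-bs: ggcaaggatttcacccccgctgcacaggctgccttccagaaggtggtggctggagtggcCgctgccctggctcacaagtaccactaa

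Hbb-bt: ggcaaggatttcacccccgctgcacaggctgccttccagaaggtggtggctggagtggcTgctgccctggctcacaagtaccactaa

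Reads were trimmed to 60 bases. Of all 60-base windows in the coding sequence, 86.8% were shared by the alpha copies and 92.7% by the beta copies. Over the whole transcript the shared part was 65.5% for Hba-a1, 84.6% for Hba-a2, 65.2% for Hbb-bs and 57.6% for Hbb-bt. No window matched a transcript of a gene outside the pair exactly. Matches with differing bases, which the study's alignment allowed, were not searched, so reads may also align to other globin genes. The coding region thus leaves 49 windows of its own to each alpha gene and 28 to each beta gene.

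Exon counts leave out reads that align to several places. By this measure globin mRNA took a small part of every input and a far larger part of the IP in all protocols but SMTer. By the alignments behind the RPKM values, described below, the SMTer IP held 1.55 to 2.22% and its input 0.0600 to 0.101%. In exon counts, the 4 genes held 0.246, 0.210 and 0.154% of the Tru70 input of mice 1, 2 and 3. The Tru70 IP libraries of the same mice held 22.6, 16.2 and 12.9%. The groups did not overlap, the IP was 91.7-, 77.3- and 83.9-fold above the input of the same mouse, and the IP mean was 17.0 percentage points higher.

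The TruSeq protocol with 4 ng and the SMART-Seq v4 protocols gave shares of the same order. In Tru4 the IP held 20.9, 14.3 and 12.9% against 0.167, 0.144 and 0.132% in the input. SMTseq4 had 17.9, 14.5 and 12.5% in the IP and 0.191, 0.165 and 0.134% in the input. SMTseq0.25 had 18.1, 15.2 and 13.04% in the IP and 0.206, 0.175 and 0.145% in the input. In each of these protocols every IP library lay above every input library, and mouse 1 was highest and mouse 3 lowest in both fractions.

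NEB and NuG gave lower shares of exon counts in both fractions. NEB IP libraries held 5.02, 4.38 and 3.0005% and their inputs 0.0569, 0.0629 and 0.0328%. NuG IP libraries held 2.60, 2.64 and 1.63% and their inputs 0.0665, 0.0576 and 0.0564%. The rise within a mouse was 69.5- to 91.5-fold in NEB and 29.0- to 45.8-fold in NuG. The NuG values depend on the denominator. As a share of counts on protein-coding genes outside the mitochondrial genome, the NuG inputs held 0.165, 0.145 and 0.144%, within or near the range of the Tru4 inputs (0.151 to 0.188%) and SMTseq4 inputs (0.144 to 0.205%) on that scale. The NuG IP libraries then held 3.39, 3.07 and 1.91%, and the rise was 20.6-, 21.2- and 13.2-fold. SMTer stood apart from all others in the exon counts, with 0.130, 0.0671 and 0.0870% in the IP against 0.0826, 0.0585 and 0.0495% in the input.

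With 3 libraries against 3, the two-sided exact permutation test cannot give a p below 0.1. This smallest value, p = 0.1, was reached in the 6 protocols other than SMTer, and in SMTer the exact test gave p = 0.2. Counting error was small beside the spread of the mice: the 95% Wilson interval of an input share, which covers counting error only, was at most 7.02% of the share wide outside SMTer. With the labelled fractions the IP exceeded the input by 2.10 percentage points in NEB, 1.18 in NuG and 7.39 in Tru4, each with an exact permutation p = 0.4.

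**Figure D1:**
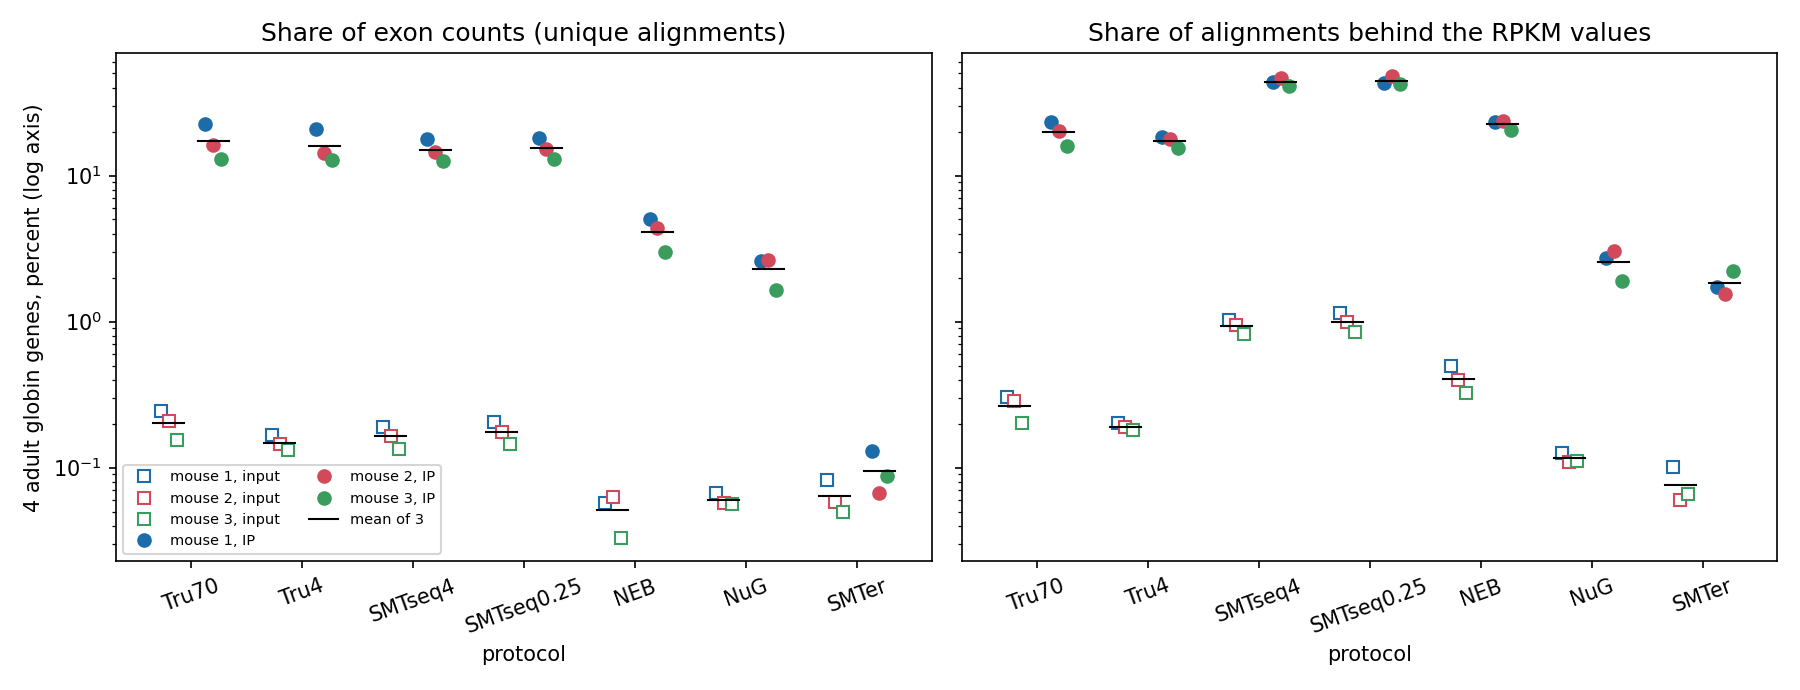
Share of the 4 adult globin genes in each library, in percent on a log axis, by protocol; open squares are input and filled circles IP, colours mark the mice and black lines the mean of 3. The left panel uses exon counts, where the SMTer fractions lie close together between 0.0495 and 0.130%, and the right panel uses the alignments behind the RPKM values, where the fractions are separated in all 7 protocols.

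Taken one by one, the 4 genes all moved in the same direction. In Tru70, Hbb-bs had 10.5, 7.67 and 6.17% of exon counts in the IP of mice 1, 2 and 3 and 0.105, 0.0939 and 0.0625% in the input, and it was the gene with the most counts in all 3 IP libraries. Hba-a2 had 7.93, 6.03 and 4.67% in the IP and 0.101, 0.0807 and 0.0663% in the input, and it ranked 2 in all 3. Hba-a1 had 2.82, 1.62 and 1.39% against 0.0292, 0.0257 and 0.0170%. Hbb-bt had the fewest counts of the 4 genes, with 1.34, 0.880 and 0.677% against 0.0108, 0.00920 and 0.00803%. None of the 4 overlapped between the fractions, and in the Tru70 inputs the 4 ranked between 111 and 1591 among all genes.

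The order of the genes depended on the protocol. Hbb-bs was also the top gene of every IP library of Tru4, SMTseq4 and SMTseq0.25. In the SMTseq IP libraries Hba-a1, which ranked 2 or 3, had more counts than Hba-a2, which ranked 5 or 6. In NEB IP libraries the 4 genes ranked between 2 and 18, and in NuG IP libraries between 4 and 53.

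In edgeR fits across all genes, with TMM scaling of the libraries and Benjamini-Hochberg adjusted p under 0.05, all 4 genes were higher in the IP in each of the 6 count protocols. The share of all tested genes that were called higher in the IP was 18.1% in Tru70, 25.9% in Tru4, 30.4% in SMTseq4, 19.8% in SMTseq0.25, 5.82% in NEB and 24.0% in NuG. In SMTer, limma on log2(RPKM + 1) called all 4 genes higher, against 13.2% of all genes tested. Called lower in the IP were 2458 of 14707 genes in Tru70, 3845 of 15868 in Tru4 and 4334 of 15091 in SMTseq4. The numbers were 2449 of 14300 in SMTseq0.25, 646 of 12099 in NEB and 2590 of 12406 in NuG. A call by itself was thus common in these data. By size of the fold change, the 4 genes ranked 183 to 218 among the 2665 genes called higher in Tru70, 64 to 207 among 4594 in SMTseq4 and 393 to 805 among 2979 in NuG.

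Tru4 gave the highest log2 fold change of the 6 count protocols for Hba-a1, Hba-a2 and Hbb-bt. In Tru4 they were 6.55 ± 0.45 (SE) for Hba-a1, 6.22 ± 0.38 for Hba-a2, 6.28 ± 0.37 for Hbb-bs and 6.39 ± 0.38 for Hbb-bt, with edgeR adjusted p between 2.04e-06 and 4.76e-06. In Tru70 they were 5.97 ± 0.44, 5.84 ± 0.36, 6.15 ± 0.38 and 6.31 ± 0.39 in the same order, with adjusted p between 8.63e-06 and 1.80e-05. The smallest of these values, for Hba-a2 in Tru70, is a 57.3-fold rise.

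In the SMTseq protocols the values of the beta genes lay above those of the alpha genes, a difference that was tested only as the ratio below. SMTseq4 gave 5.56 ± 0.30 for Hba-a1 and 5.34 ± 0.30 for Hba-a2, and 6.31 ± 0.38 for Hbb-bs and 6.23 ± 0.37 for Hbb-bt. SMTseq0.25 gave 5.57 ± 0.27, 5.40 ± 0.28, 6.31 ± 0.30 and 6.22 ± 0.32. The highest adjusted p over the 8 edgeR tests was 1.31e-05.

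NEB was close to TruSeq in fold change although its shares of exon counts were lower. Its log2 values were 5.84 ± 0.38, 5.87 ± 0.47, 5.90 ± 0.47 and 6.15 ± 0.34, with edgeR adjusted p of at most 2.43e-04. NuG gave the smallest values in counts, 3.003 ± 0.24 for Hba-a1, 3.17 ± 0.24 for Hba-a2, 4.00 ± 0.24 for Hbb-bs and 3.91 ± 0.24 for Hbb-bt, with adjusted p of at most 3.25e-07. With the labelled fractions none of the 4 genes passed in NEB, NuG, Tru4 or SMTer, and no gene at all passed (293, 91, 37 and 28 genes had an unadjusted p under 0.05), while without mouse 3 all 4 passed in these protocols too.

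Scaling sets the size of these changes. With library sizes alone in place of TMM, the median log2 change of all genes moved to 0.41 in Tru70, 0.47 in Tru4, 0.56 in SMTseq4, 0.54 in SMTseq0.25, 0.49 in NEB and 1.60 in NuG, and the globin values moved up with it. On that scale NuG gave 4.57, 4.75, 5.57 and 5.48 and Tru70 6.34, 6.23, 6.54 and 6.69 in the order of the genes above. All fold changes given above are relative to the other genes after TMM.

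**Figure D2:**
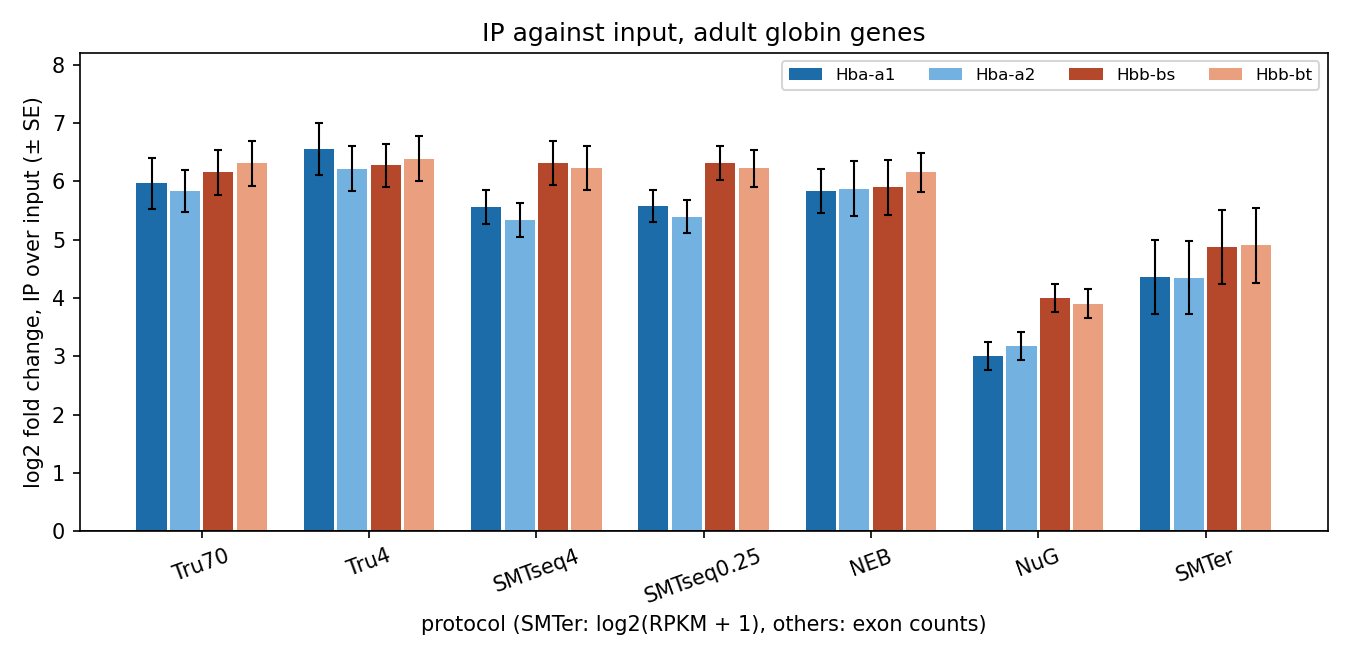
Log2 fold change of IP over input for each adult globin gene by protocol, with SE as error bars (n = 3 mice per fraction). SMTer values are on the log2(RPKM + 1) scale and the others come from exon counts; the bars of NuG, from 3.003 to 4.002, are the lowest of the count protocols.

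Whether the change differed between protocols was tested in one edgeR fit over the 36 libraries of the 6 count protocols, with Tru70 as reference. In NuG all 4 genes passed and the rise was smaller than in Tru70, while 0.135% of all genes passed in that comparison. The log2 differences were -2.93 ± 0.46 (adjusted p = 0.00137) for Hba-a1, -2.63 ± 0.45 (0.00446) for Hba-a2, -2.11 ± 0.45 (0.0407) for Hbb-bs and -2.37 ± 0.44 (0.0129) for Hbb-bt. This call rests on all 3 mice. Without mouse 2 or without mouse 3 none of the 4 genes passed, with Hba-a1 at -3.26 and -2.84, and without mouse 1 there were 3. With library sizes alone 3 of the 4 genes passed, and the differences were -1.78, -1.49, -0.97 and -1.22.

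In the other comparisons with Tru70 none of the 4 genes passed. The share of all genes that passed was 4.21% for NEB, 0.683% for SMTseq0.25, 0.210% for SMTseq4 and 0% for Tru4. For NEB the log2 differences of the 4 genes lay between -0.20 and 0.09, with SE up to 0.45. For SMTseq4 they lay between -0.44 and 0.22, for SMTseq0.25 between -0.40 and 0.20, and for Tru4 between 0.06 and 0.57. The SE of these differences were 0.43 to 0.45, so that smaller differences between protocols could go undetected.

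Within SMART-Seq v4, the amount of RNA made no detectable difference to the globin change. SMTseq0.25 minus SMTseq4 was -0.00 ± 0.45 for Hba-a1, 0.04 ± 0.44 for Hba-a2, -0.02 ± 0.44 for Hbb-bs and -0.03 ± 0.43 for Hbb-bt. In this edgeR comparison 0% of all genes passed, with 572 of 18582 at an unadjusted p under 0.05. For Tru4 against Tru70 the count at that unadjusted level was 819.

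The deposited RPKM values are built on other reads than the exon counts, and the globins show it. For 84.8% of the RPKM values above 0, multiplying by the length of the gene from start to end and by the library total gives a whole number within 0.02, and this number counts alignments at every place a read fits. On this basis the 4 genes held 23.1, 20.2 and 15.9% of alignments in the Tru70 IP of mice 1, 2 and 3, close to their share of exon counts. In the NEB IP they held 23.1, 23.6 and 20.5%, and in the SMTseq4 IP 43.5, 46.7 and 41.1%. The mean NEB IP share was therefore 4.13% by one file and 22.4% by the other. Shared reads enter both copies here, so that these percentages count some reads more than once.

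Exon counts came to 27.7% of the alignments on the 4 genes in the Tru70 IP, as the mean of 3 mice, 26.5% in Tru4 and 24.99% in NuG. Reads were paired-end, and how each file counted the mates of a pair is not given in the sources used here. This percentage therefore need not equal the uniquely placed part. The mean was 6.16% in SMTseq4, 6.32% in SMTseq0.25, 4.12% in NEB and 0.0742% in SMTer. For all genes together, IP libraries outside SMTer ranged from 16.3 to 33.6%. In the NEB and SMTseq IP libraries the globin values, at most 7.18%, lay below those of all genes in the same protocols, at least 16.3%. Among the 4, the percentage in Tru70 was highest for Hbb-bs (37.6 to 39.0%) and lowest for Hba-a1 (12.4 to 16.2%).

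**Figure D3:**
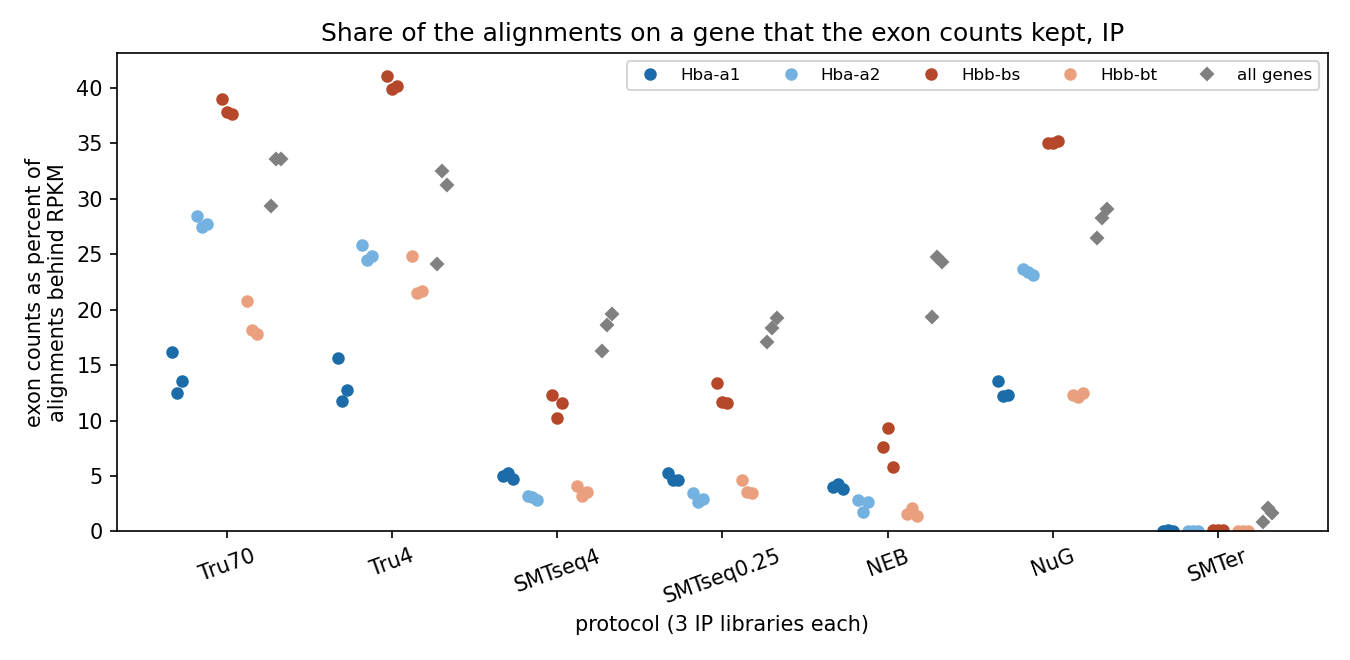
Exon counts of a gene as percent of the alignments behind its RPKM value, for the 3 IP libraries of each protocol; coloured points are the 4 globin genes and grey diamonds all genes together. In NEB and SMTseq all 4 genes lie below the level of all genes, and in Tru70 Hbb-bs lies above it at 37.6 to 39.0%.

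SMTer shows the largest disagreement of both files. Its RPKM values rose in every mouse: Hba-a1 from 355, 185 and 220 in the input to 4856, 4282 and 6143 in the IP, and Hbb-bs from 167, 102 and 114 to 4080, 2699 and 4550. Log2 changes of RPKM + 1 were 4.36 ± 0.63 for Hba-a1, 4.35 ± 0.63 for Hba-a2, 4.87 ± 0.64 for Hbb-bs and 4.90 ± 0.64 for Hbb-bt, with limma adjusted p of at most 6.49e-10. These p rest on a variance that limma shared across all tested genes, and not on the spread of the 4 genes alone. The 4 genes took 1.72, 1.55 and 2.22% of alignments in the IP against 0.101, 0.0600 and 0.0657% in the input, without overlap (exact permutation p = 0.1, the smallest possible).

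By exon counts, none of the 4 genes passed in SMTer with edgeR, and the log2 changes were -0.17 for Hba-a1, 0.20 for Hba-a2, -0.03 for Hbb-bs and -0.23 for Hbb-bt. In the SMTer files 76.8 to 93.8% of reads outside the multiply aligned ones were booked as lying on no feature, against 3.18 to 27.6% in the other protocols. SMTer is the one kit of the study said to keep the strand. Whether the counting used the strand is not given in the sources used here, and its part in the result was not tested.

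The ratio of alpha to beta mRNA was lower in the IP than in the input in most protocols. Per coding length, and from alignments at every place, (Hba-a1 + Hba-a2) over (Hbb-bs + Hbb-bt) in Tru70 was 1.85, 1.83 and 1.90 in the input of mice 1, 2 and 3 and 1.41, 1.44 and 1.39 in the IP. In SMTseq4 it went from 1.53, 1.43 and 1.72 to 0.828, 0.894 and 0.991. NuG had the widest gap, from 1.25, 1.28 and 1.35 to 0.580, 0.669 and 0.606.

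In 6 of the 7 protocols all IP libraries lay below all inputs, and 20 of 21 mouse and protocol pairs were lower in the IP. Each of these 6 reached the smallest exact permutation p of 0.1, which is 0.117 after Benjamini-Hochberg adjustment over the 7 protocols, so that none passes 0.05. Tru4 was the exception, with 1.84, 1.78 and 1.95 in the input and 1.85, 1.63 and 1.78 in the IP (exact p = 0.5). Since the same 3 mice stand behind all protocols, the protocols repeat the measurement and not the animals. The study reports higher coverage at the 3' end of transcripts in IP samples, except with SMTer. Whether coverage along the transcripts has a part in the lower ratio was not tested.

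From exon counts, in which the shared windows drop out, the IP lay below the input without overlap in 4 of 7 protocols: Tru70 (mean 1.15 to 0.928), SMTseq4 (0.808 to 0.462), SMTseq0.25 (0.781 to 0.460) and NuG (0.752 to 0.411). NEB went from 0.638 to 0.597 with overlap, and SMTer from 0.892 to 0.955. The level of the ratio differed between the files, and whether the tissue held more alpha than beta mRNA cannot be read from either one.

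**Figure D4:**
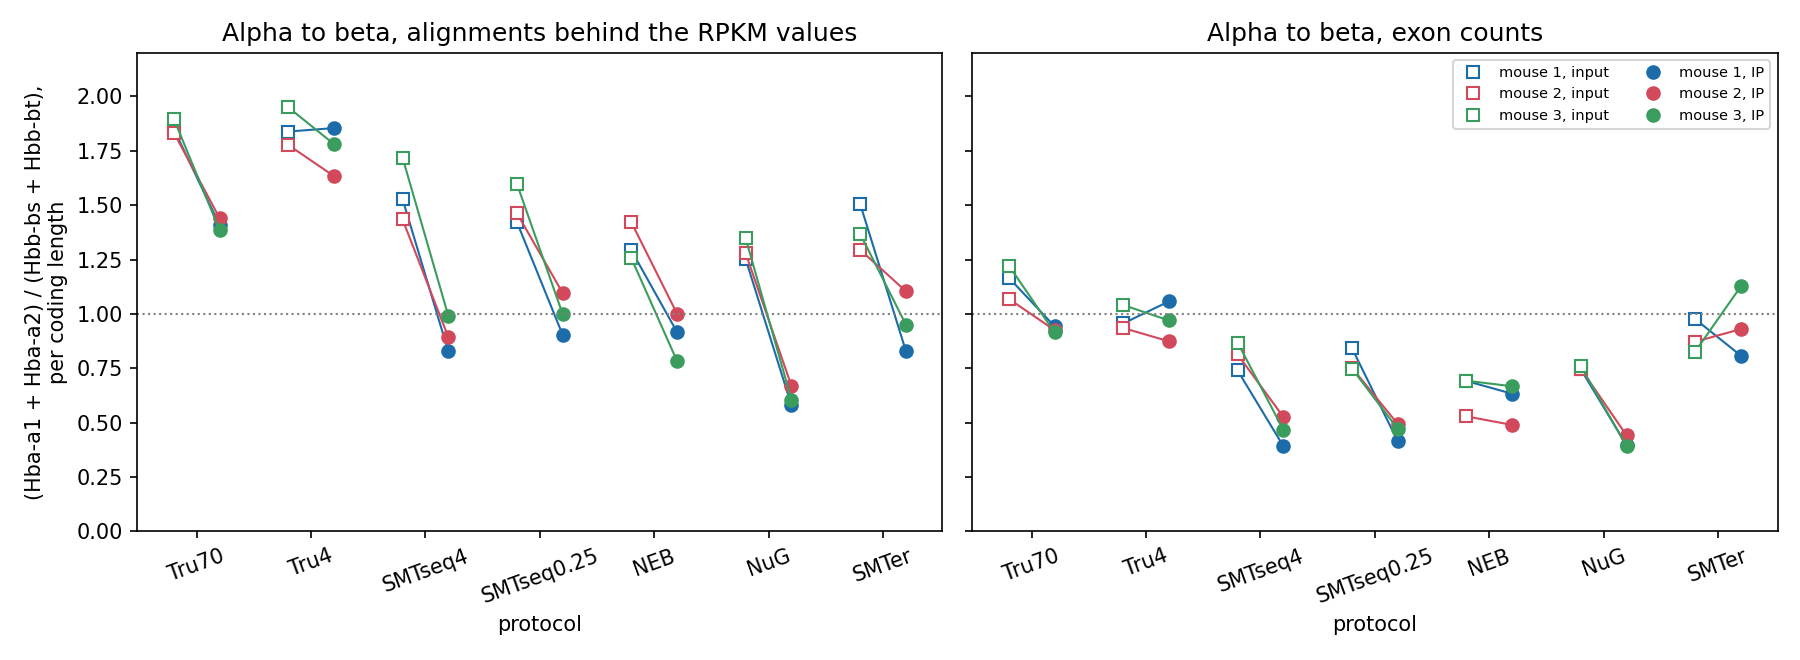
Alpha to beta ratio per coding length in input (open squares) and IP (filled circles) of each mouse, joined by a line, by protocol; the left panel uses alignments at every place, the right panel exon counts, and the dotted line marks a ratio of 1. Lines fall in 20 of 21 pairs on the left and in 18 of 21 on the right.

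The split between the copies differed more between protocols than between fractions. By alignments, Hba-a2 over Hba-a1 was 1.63 in the Tru70 input and 1.64 in the IP, 1.51 and 1.48 in Tru4, and 1.28 and 1.42 in NuG, where the IP lay above the input without overlap. In SMTseq4 it was 0.992 and 0.988, and in NEB 0.984 and 0.999. Hbb-bt over Hbb-bs was 0.227 and 0.237 in Tru70, 0.469 and 0.400 in NuG and 0.803 and 0.781 in SMTseq4. By exon counts Hba-a2 over Hba-a1 was 3.50 and 3.30 in Tru70 and 0.708 and 0.605 in SMTseq4, so that the gene with more counts changed with the kit. Since reads of the shared windows cannot be placed, the level of a single copy is uncertain in all protocols, and the sum of a pair is the firmer value.

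Mice differed in the same order in most protocols. Mouse 1 had the highest globin share in 5 of the 6 count protocols in both the input and the IP, and mouse 3 the lowest in 6 of 6. In alignments, mouse 1 was highest in 7 of 7 input groups but in 2 of 7 IP groups, and mouse 3 was lowest in 6 of 7 IP groups, so that in the IP the order of mice 1 and 2 depends on the file. Other genes of red cells differed in whether they kept the order of the exon counts. Slc25a37 had its highest IP level in mouse 1 and its lowest in mouse 3 in 6 of 6 count protocols, with 223, 135 and 120 CPM in Tru70. The summed level of 9 erythroid markers, among them Alas2, Slc4a1, Epb42, Klf1, Gata1, Rhd and Ermap, was 251, 653 and 396 CPM (counts scaled to a common library total) in the Tru70 IP of mice 1, 2 and 3, and 54.2, 62.8 and 22.8 CPM in the input. Most of this sum was Alas2, with 219, 623 and 366 CPM in the Tru70 IP. In SMTseq4 the IP had 181, 758 and 361 CPM and the input 64.3, 63.3 and 38.7 CPM. Mouse 2 was highest in 5 of 6 IP groups and mouse 1 lowest in 4 of 6, while NEB had 1068, 959 and 808 CPM in the order of the globins.

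**Figure D5:**
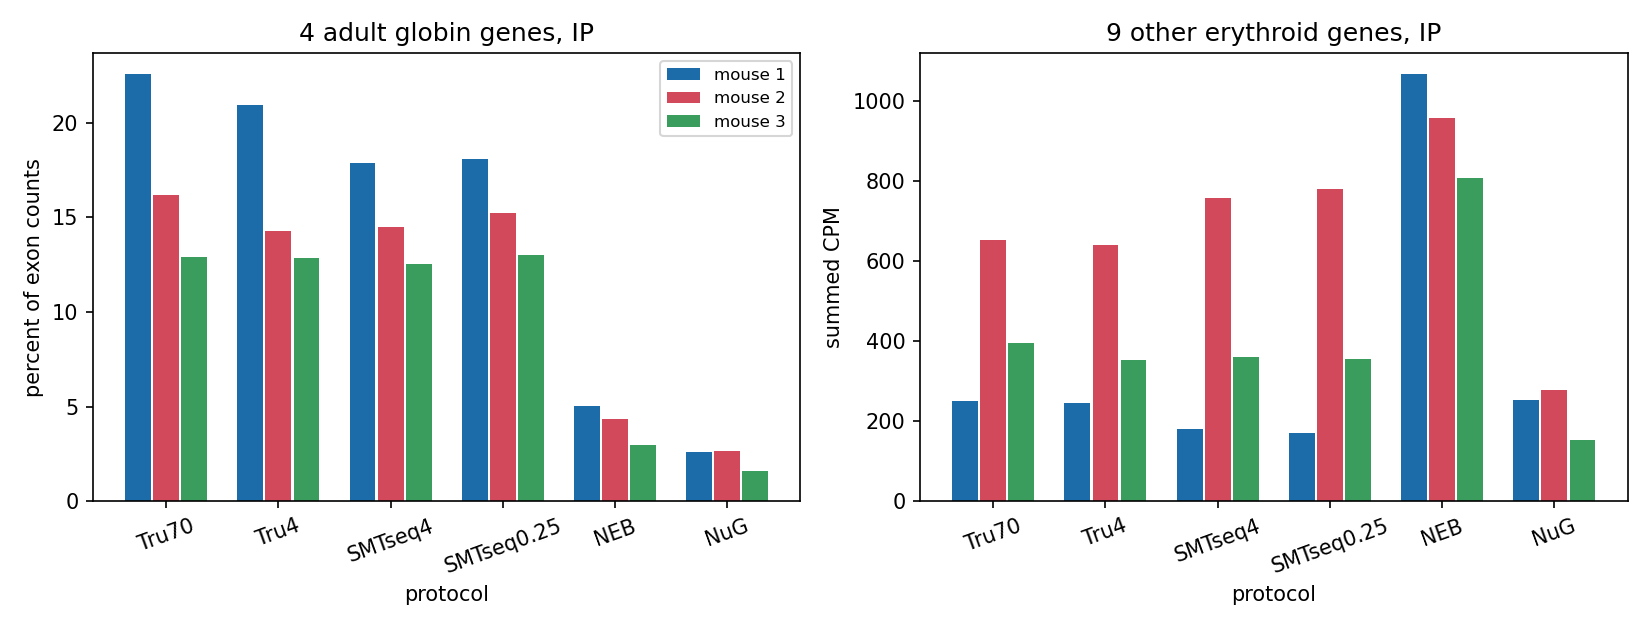
Left, share of the 4 adult globin genes in exon counts of the IP by mouse and protocol; right, summed CPM of the 9 other erythroid markers in the same libraries (1 bar per library, no error). On the left mouse 1 is highest in 5 of 6 protocols, and on the right mouse 2 is highest in 5 of 6.

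Other globin genes were barely present in exon counts. Of 8 embryonic, theta-like and pseudogene members (Hba-x, Hbb-bh1, Hbb-bh2, Hbb-y, Hbb-bh0, Hbb-bh3, Hbq1a and Hbq1b), none could be tested in NEB and NuG. By exon counts 1 was tested in Tru70 (Hbq1a) and 2 in each of Tru4, SMTseq4 and SMTseq0.25 (Hbq1a and Hbq1b), all called higher in the IP. In SMTer, where RPKM was tested, Hba-x and Hbb-bh3 were called higher, though both had 0 exon counts in all SMTer libraries. Hbq1a, a theta-like gene with a close copy in Hbq1b, had 828 counts in the 3 Tru70 IP libraries and 1 in the inputs. Hbb-bh0, Hbb-bh2 and Hbb-bh3 had 0 counts in all 42 libraries.

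A pair of them had high RPKM all the same. The pseudogene Hbb-bh3 had RPKM of 3900, 3529 and 3078 in the Tru70 IP and 35.5 to 46.3 in the input. The embryonic gene Hba-x had 12 counts over all 42 libraries, but RPKM of 1037, 455 and 435 in the Tru70 IP and 5.23 to 8.77 in the input. These values have no counterpart among uniquely placed reads, and embryonic globin expression cannot be read from them.

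Of 9 heme synthesis enzymes, the erythroid first enzyme was the sole one to rise. Alas2 rose in all 7 protocols, and in the 6 count protocols 2 to 7 fell. In Tru70, where 5 fell, Alas2 went from 42.2 to 403 CPM (log2 change 2.81 ± 0.46, edgeR adjusted p = 0.00142), while Alas1, its counterpart in other tissues, fell by 1.66 ± 0.48 on the log2 scale (adjusted p = 0.0254) and Urod, uroporphyrinogen decarboxylase, fell by 1.08 ± 0.18 (adjusted p = 0.00178). The list's median log2 change in Tru70 was -0.92, beside -0.03 for all genes tested, of which 18.1% rose and 2458 of 14707 fell.

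Genes of the red cell membrane were scarce. Of 14 genes, 7 could be tested in Tru70 and 4 rose, with a median log2 change of 3.77. The median for all genes tested was -0.03, and 18.1% of them rose. Slc4a1, the anion exchanger band 3, had 0.501 CPM in the input and 15.7 CPM in the IP (4.61 ± 1.34, adjusted p = 0.0256). Epb41, protein 4.1, which other cells also make, went from 77.3 to 168 CPM (0.70 ± 0.20, adjusted p = 0.0249). Ank1 (ankyrin 1) had 0 counts in the 3 inputs and 3.02 CPM in the IP, and it was called. Epb42, Rhag and Kel, also at 0 in the inputs, had 0.722, 0.224 and 0.794 CPM in the IP and were too low to be tested. Across the count protocols 2 to 7 of the tested genes rose and none fell. The share of all tested genes that rose ran from 5.82% in NEB to 30.4% in SMTseq4.

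Of 14 genes for erythroid factors and maturation, 13 were found in the files, 11 were tested in Tru70 and 5 of those rose. Bpgm, bisphosphoglycerate mutase of the red cell, went from 23.4 to 667 CPM (4.43 ± 0.35, adjusted p = 2.56e-05). Slc25a37, the mitochondrial iron importer mitoferrin 1, rose by 1.70 ± 0.33 (adjusted p = 0.00358), and Bnip3l, which clears mitochondria from reticulocytes, by 0.90 ± 0.19 (adjusted p = 0.00638). Hemgn, Gata1 and Trim58 had 0 counts in the inputs and 1.82, 0.280 and 0.235 CPM in the IP. The erythroid regulator Klf1, chosen after its values were seen, had 3.38 CPM in the input and 0.931 CPM in the IP in Tru70 and did not pass (adjusted p = 0.0836), but was called lower in the IP in Tru4 (-1.82, adjusted p = 0.00544) and SMTseq4 (-1.28, adjusted p = 0.0189). The list's median log2 change in Tru70 was 1.499, beside -0.03 for all genes tested, of which 18.1% rose.

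Genes that handle hemoglobin and heme outside the red cell moved in both directions. Hp (haptoglobin) and Hpx (hemopexin), secreted by hepatocytes, fell by 2.12 ± 0.30 and 2.69 ± 0.18 on the log2 scale in Tru70 (adjusted p = 5.84e-04 and 1.36e-05). Hmox1, heme oxygenase 1, rose from 19.8 to 686 CPM (4.67 ± 0.25, adjusted p = 4.97e-06). Of 7 genes in the list 4 rose and 2 fell in Tru70, Tru4, SMTseq4 and SMTseq0.25. Over all genes tested in Tru70, 18.1% rose and 2458 of 14707 fell.

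Cell type markers differed in direction. Of all genes tested in Tru70, 18.1% rose and 2458 of 14707 fell in the IP. All 8 hepatocyte markers fell in each of the 6 count protocols, and their sum in Tru70 went from 149717 to 164428 CPM in the inputs down to 28374 to 30939 CPM in the IP. All 7 markers of Kupffer cells, the macrophages of the liver, rose in each of the 6, and their sum in Tru70 went from 319 to 353 CPM up to 13936 to 19560 CPM. Of 9 erythroid markers 3 of 5 tested rose in Tru70, with a sum of 22.8 to 62.8 CPM in the inputs and 251 to 653 CPM in the IP, Epb42 and Gata1 at 0 in the inputs and Rhd at 0 in the IP. The part of these cells in the globin rise was not tested.

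For the other blood and vessel lists the Tru70 sums were higher in the IP as well. Of all genes tested there, 18.1% rose and 2458 of 14707 fell. Neutrophil markers went from 1.86 to 3.86 CPM in the inputs up to 99.4 to 211 CPM (4 of 7 tested rose), T cell markers from 1.43 to 3.31 up to 154 to 186 CPM (6 of 6) and B cell markers from 5.39 to 10.5 up to 352 to 499 CPM (5 of 5). Platelet markers went from 2.99 to 5.70 up to 96.3 to 120 CPM (4 of 5), and endothelial markers from 172 to 184 up to 280 to 501 CPM (1 of 6 rose and 3 fell).

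The genes most like the globins over the 36 libraries were not mainly red cell genes. After centring log2(CPM + 1) within each protocol, Pearson's r with the mean of the 4 globins was 0.994 for Tmsb4x (thymosin beta 4, an actin-binding peptide) and 0.994 for Cyba (a subunit of the phagocyte NADPH oxidase). It was 0.992 for Aif1 (a macrophage protein), 0.991 for Gmfg-ps, 0.991 for Ifi27l2a, 0.991 for Ctss (the lysosomal protease cathepsin S) and 0.990 for Bpgm. These 7 were called higher in the IP in 6 of 6 protocols. These correlations are a description: the 36 libraries come from 3 mice, all of them share the difference between IP and input, and 1232 of 10124 genes had an r over 0.9.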

How the data were processed

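Libraries, read counts and RPKM were made by the study. Per the labels and the study's methods, reads were trimmed to 60 bases and aligned with TopHat to GRCm38. The authors deposited exon counts per Ensembl gene, which leave out reads aligned to several places, and RPKM values per gene. The counting's strand setting is not given in the sources used here. Exon counts summed to 464199 to 45466334 per library, lowest in SMTer.

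Exon counts of 6 protocols were fitted with edgeR 4.0.16 (TMM, filterByExpr, quasi-likelihood test) in R 4.3.3, and SMTer RPKM with limma 3.58.1 on log2(RPKM + 1) for genes with RPKM of at least 1 in at least 3 libraries, with Benjamini-Hochberg adjusted p under 0.05. Fold changes on that scale understate changes of low genes. The SE given with edgeR values is the absolute log2 change divided by the square root of the F statistic of its test. DESeq2 1.42.0 was an alternative. Shares and ratios were compared with two-sided exact permutation tests in scipy 1.17.1. The edgeR and limma fits were tested on data simulated from the gene means of Tru70 and NuG, with no effect of the mouse. SMTer itself was not simulated.

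The members and gene lists were chosen with earlier results of these data known. Named genes are the 4 globins, the 3 genes of each list with the highest mean Tru70 RPKM, genes of a list at 0, and the 8 genes most correlated with the globins among those with at least 5 CPM in 18 of 36 libraries. The replicate number is the mouse, so numbers pair the fractions. The correlation of same-mouse deviations ran from 0.0396 in NEB to 0.603 in SMTer. Of the files' genes 419 were not in GENCODE M21. Values of single genes that the naming rule would also give are in part not reported here.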

Additional observations from a re-analysis of the deposited data

Results flagged for a closer look

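The rise of all 4 globin genes from input to IP was smaller in NuG than in Tru70 by the test of the difference itself, which is why these values are listed. On the log2 scale, NuG minus Tru70 was -2.93 for Hba-a1, -2.63 for Hba-a2, -2.11 for Hbb-bs and -2.37 for Hbb-bt in the edgeR fit over 36 libraries. With library sizes alone the differences shrank to -1.78, -1.49, -0.97 and -1.22. Groups of 3 libraries are too small for the test of single outlying samples.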

How the results depend on the processing

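All 4 genes kept their direction and passed in all 7 protocols with the replicate block (4 of 4 each, and 4 of 4 for NuG against Tru70), and the block changed no call of a globin gene. Size factors, filters, DESeq2, the other pseudocount and leaving out any mouse did not change the 4 calls within a protocol. Library sizes alone, edgeR on SMTer alignments, and the alternatives for the alpha to beta ratio and for SMTseq0.25 against SMTseq4 were chosen after seeing the data.

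With the labelled fractions, 0 of the 4 genes passed in NEB, NuG, SMTer, Tru4 and in NuG against Tru70. The difference in share was then 2.10 percentage points in NEB, 1.18 in NuG, 0.318 in SMTer and 7.39 in Tru4, and the alpha to beta ratio fell without overlap in 3 protocols in place of 6. For SMTer, exon counts with edgeR gave 0 calls and log2 changes of -0.17 for Hba-a1, -0.0345 for Hbb-bs and -0.23 for Hbb-bt, and a share difference of 0.0310 percentage points. With protein-coding genes as the denominator, the SMTer difference in alignments was 2.46 in place of 1.75 and that in exon counts 0.0675, and the mean NuG rise in exon counts was 17.9-fold in place of 37.3-fold. From alignments the share difference was 22.0 in NEB, 43.4 in SMTseq0.25 and 42.8 in SMTseq4. With library sizes alone, 3 of the 4 genes passed for NuG against Tru70. Leaving out 1 mouse, 0 to 3 of the 4 genes passed for NuG against Tru70. The causes were not tested, other than the multiply aligned reads that alignments hold by construction. SMTer exon counts were the shallowest, at 464199 to 762562 per library.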
